A study of Mus musculus with 8 samples.

Results

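The genes described are 35 members of the integrated stress response and of the serine and one-carbon pathway it controls, taken as a named list of mouse genes and measured through the array probes whose accession is a RefSeq transcript of a member. Of the 22911 genes that had such a probe, 34 were members, represented by 47 probes, and *Pycr1* had none. The members were *Atf4*, *Atf5*, *Ddit3*, *Cebpb*, *Cebpg* and *Nupr1* among transcription factors, *Fgf21*, *Gdf15* and *Stc2* among secreted factors, 7 feedback and stress effectors, 7 serine and one-carbon enzymes, 5 enzymes of asparagine, proline, cysteine and phosphoenolpyruvate synthesis, 5 amino acid transporters and 2 tRNA synthetases.

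To compare skeletal muscle with and without GRSF1, an RNA-binding protein of mitochondria, the study took RNA from 3 Grsf1cKO and 3 WT males at 17 months of age and used Agilent arrays with the single dye Cy3. Each mouse had 1 array, and Grsf1cKO 1 and WT 1 had a repeat array, which gave 8 arrays. In Grsf1cKO mice, a Grsf1tm1a allele from EMMA (C57BL/6N-A tm1Brd background) had lost its LacZ and Neo cassettes through FLPo, and exons 4 and 5, flanked by loxP sites, are deleted where Myf5Cre is active. WT mice were controls matched for age and sex. Cre driven from *Myf5* acts in the skeletal muscle lineage, so that blood, vessel, nerve and connective tissue cells in a muscle can keep GRSF1. The sample labels name the muscle as the vastus intermedius and the study's text as the rectus femoris. Values are log2 of the background-corrected signal after quantile normalization, with the arrays of a mouse averaged. They are listed in the order of mouse 1, 2 and 3 of each genotype, and a level of one probe cannot be set against that of another. The repeat array of Grsf1cKO 1 stood apart, with 88.9% of spots well above background against 66.3% to 73.1% on the other 7 arrays, and for named results that rest on it the values on first arrays are given as well. Slide 1 held WT 2 and the first array of WT 1, and slide 2 the other 6 arrays. In whole muscle, fewer cells of a type and less RNA per cell cannot be told apart.

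In the integrated stress response, kinases that sense missing amino acids, unfolded proteins or failing mitochondria phosphorylate the initiation factor eIF2. General translation then slows, while the mRNA of *Atf4* is translated more, so that ATF4 protein can rise without a change in its mRNA. ATF4 switches on amino acid transport, serine and one-carbon synthesis and tRNA charging, and in skeletal muscle with impaired mitochondria this response is known for the secreted hormones FGF21 and GDF15.

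The targeted gene is given first. The *Grsf1* log2 signal was 12.15, 12.02, 12.08 (Grsf1cKO) against 14.30, 14.24, 14.29 (WT). All 3 Grsf1cKO values lay far below the WT values, and *Grsf1* fell by 2.19 on the log2 scale (standard error 0.0816, limma adjusted *p* = 0.00343). With slide as a term the difference was -2.21, and on slide 2 alone it was -2.22. With mice of the same number as a block, the limma adjusted *p* was 0.248, above the study's false discovery rate limit of 0.2. The muscle fiber list (*Acta1*, *Ckm*, *Mb*, *Myh1*, *Myh2*, *Myh4*, *Myh7*, *Tnnt3*, *Tnnt1*, *Actn3*, *Ryr1* and *Pvalb*) was well above background on every array for 12 of 12 genes. Its summed signal, led by *Tnnt3*, was 21.82, 21.84, 21.84 (Grsf1cKO) and 21.81, 21.80, 21.81 (WT) on the log2 scale. Its brightest probes stand at the top rank of the normalized scale, which makes the sums nearly equal by construction. The slow fiber genes varied between mice, *Myh7* with 11.35, 9.46, 9.39 (Grsf1cKO) and 9.27, 11.37, 11.33 (WT) and *Tnnt1* with 14.39 in Grsf1cKO 3 and 11.98 to 13.03 in the others.

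None of the members passed the criteria of the study in this comparison. With limma, 0 of the 33 member genes tested exceeded 1.5-fold together with *p* under 0.01 before adjustment and a false discovery rate under 0.2, where 0.00771% of all 38888 probes tested did. At an unadjusted *p* under 0.05 there was 1 member, *Slc7a5*, against 4.25% of all probes, and a *z*-test gave 3 members at that level, against 10.8% of all probes, and 0 past all criteria, against 0.977%. The genotypes did not overlap for 2 members, against 9.22% of all probes, and 2 members were over 1.5-fold, against 4.13%. The median difference, Grsf1cKO minus WT, was 0.03 over the members and -0.02 over all probes, with 20 members above 0 and 13 below. Each gene stands here through its brightest probe.

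The size of change that these arrays leave room for differed between members. The 95% interval of the difference lay within 1.5-fold on both sides for 19 of the 33 members, and over 17030 named genes it did so for 69.7%. For 24 members the upper bound lay below a 1.5-fold increase, and for 30 it lay below 2-fold. The 3 members with wider upper bounds were *Fgf21*, *Ddit4* and *Asns*. They were also among the members that varied most between mice of a genotype, and the interval is computed in part from that variation. On the lower side the bounds of *Fgf21*, *Slc7a3* and *Asns* were -2.19, -1.23 and -1.01, beyond a 2-fold decrease.

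**Figure D1:**
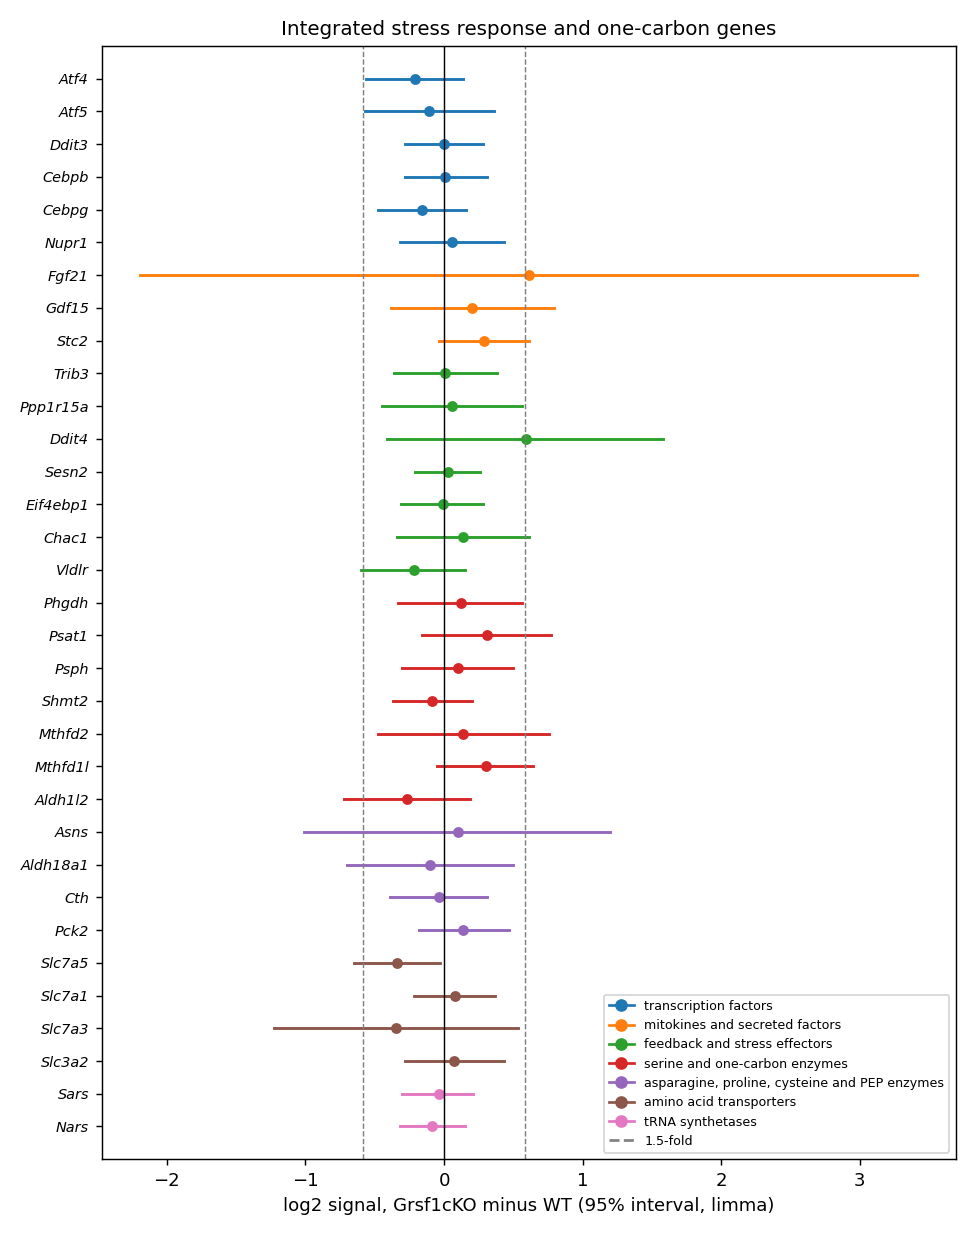
Difference in log2 signal, Grsf1cKO minus WT, for the 33 members tested, with its 95% interval from limma (3 mice per genotype). Dashed lines mark 1.5-fold in either direction. All intervals but that of *Slc7a5* include 0, and those of *Fgf21*, *Ddit4* and *Asns* are the widest on the upper side.

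*Atf4*, the transcription factor at the head of the response, had a log2 signal of 16.93, 16.76, 16.44 (Grsf1cKO) and 17.00, 16.89, 16.87 (WT). Grsf1cKO 3 was lowest and Grsf1cKO 1 lay within the WT range, so that the genotypes overlapped. The difference was -0.21, with a 95% interval of -0.56 to 0.14 and a limma adjusted *p* of 0.997. It was -0.16 with slide as a term and -0.20 on slide 2, and the other probe of *Atf4* gave -0.08. Without Grsf1cKO 3 the difference was -0.08, without Grsf1cKO 1 it was -0.32, and with the deposited scores it was -0.07. Of the other transcription factors, *Atf5*, a relative of ATF4 that acts in the mitochondrial unfolded protein response, gave -0.11 and *Cebpg*, a dimer partner of ATF4, gave -0.16. *Ddit3*, which encodes the stress factor CHOP, *Cebpb* and *Nupr1* had differences of 0.00, 0.01 and 0.06. For all 6 the 95% interval lay within 1.5-fold on both sides.

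Among the secreted factors, the hormone *Fgf21* was close to the limit of detection. It was well above background on 4 of the 8 arrays, both arrays of Grsf1cKO 1 and those of Grsf1cKO 3 and WT 2. Its log2 signal was 5.46, 2.22, 6.04 (Grsf1cKO) against 2.58, 5.13, 4.18 (WT). Each genotype held a mouse near the bottom of the scale and a mouse above 5, and the SD was 2.06 in Grsf1cKO and 1.29 in WT mice. The difference of 0.61 had a 95% interval of -2.19 to 3.41 and was 1.25 with slide as a term, 1.02 scaled to the 75th percentile and 0.22 with normexp. With a mouse left out, the difference was -0.08 without WT 1, 0.72 without WT 3 and 1.79 without Grsf1cKO 2. *Fgf21* was not tested without Grsf1cKO 1, Grsf1cKO 3 or WT 2. *Gdf15*, the other mitokine, had 6.37, 6.28, 7.01 (Grsf1cKO) and 6.12, 6.65, 6.29 (WT). Only Grsf1cKO 3 lay above the WT mice, and the difference was 0.20 with an interval of -0.38 to 0.79. It was 0.21 with slide as a term, 0.32 on slide 2, 0.36 scaled to the 75th percentile and 0.13 with normexp.

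*Stc2*, which encodes the secreted glycoprotein stanniocalcin 2, had a log2 signal of 7.97, 7.82, 7.61 (Grsf1cKO) and 7.49, 7.37, 7.68 (WT). Grsf1cKO 3 lay below WT 3 and the genotypes overlapped by that pair of mice. The difference was 0.29, with an interval of -0.04 to 0.61 and a limma adjusted *p* of 0.997, and with slide as a term and on slide 2 it was 0.27 and 0.22.

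ATF4 binds with a C/EBP partner to an element whose core is TGATGNAA, so the RefSeq promoters (GRCm38.p6, 250 bases before to 50 after each start site) were searched for these letters on both strands. Of the members, 29 matched a promoter in the table, and 9 of them (31.0%) held the core, against 4.51% of 27025 genes. The stricter core TGATGCAA was in 6 members (20.7%) and in 1.03% of all genes. The members were listed as genes of the response that ATF4 controls, so these shares describe the list and are not a test. The 9 were *Asns*, *Chac1*, *Fgf21*, *Nupr1*, *Pck2*, *Pycr1*, *Slc7a11*, *Trib3* and *Vldlr*. The matches of 5 measured members follow, with the core in capitals and 11 bases on each side, read 5′ to 3′ on the strand that holds it.
Fgf21: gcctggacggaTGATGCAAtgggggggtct
Nupr1: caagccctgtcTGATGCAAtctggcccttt
Chac1: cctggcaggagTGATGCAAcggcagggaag
Vldlr: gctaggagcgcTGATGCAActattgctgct
Asns: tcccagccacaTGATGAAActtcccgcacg

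In GRCm38.p6 these lie at chr7:45615611-45615640 on the plus strand for *Fgf21*, chr7:126625562-126625591 on the plus strand for *Nupr1*, chr2:119351038-119351067 on the minus strand for *Chac1*, chr19:27216809-27216838 on the minus strand for *Vldlr* and chr6:7693214-7693243 on the minus strand for *Asns*. Counted along the gene, the first base of the core stood at -139, -110, -193, -200 and -23 from the start site, in the same order. A match is a description of these letters and not a binding site. The 5 genes differed by 0.61, 0.06, 0.14, -0.22 and 0.10 between the genotypes, again in that order, and none passed the criteria. *Pck2* and *Trib3*, tested members whose matches are not printed, had the core at -103 and 14 from the start site. They differed by 0.14 and 0.01, and neither passed.

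The feedback and stress effectors limit the response or carry its effects on growth and redox balance. *Ddit4*, whose product REDD1 restrains mTORC1, had a log2 signal of 12.85, 14.28, 12.83 (Grsf1cKO) against 12.84, 12.82, 12.54 (WT). Grsf1cKO 2 alone stood apart, and the other 2 Grsf1cKO mice lay beside the WT mice. The mean difference of 0.59 lay just above the 1.5-fold limit, with a 95% interval of -0.41 to 1.58 and a limma adjusted *p* of 0.997. With slide as a term and on slide 2 it was 0.58 and 0.63, but without Grsf1cKO 2 it was 0.11.

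*Vldlr*, a lipoprotein receptor that ATF4 can switch on, had 15.84, 15.60, 15.41 (Grsf1cKO) and 16.01, 15.87, 15.64 (WT). Grsf1cKO 1 lay within the WT range. Its probes gave -0.22 and -0.30, and the brighter one -0.12 with slide as a term and -0.17 on slide 2. *Chac1*, which degrades glutathione, gave 0.14, with Grsf1cKO 3 lowest at 15.37. Without that mouse the genotypes did not overlap for *Chac1*, as for 18.8% of all probes. The pseudokinase *Trib3*, a repressor of ATF4, gave 0.01. *Ppp1r15a*, the phosphatase subunit that reverses eIF2 phosphorylation, gave 0.06, with Grsf1cKO 1 highest at 13.75 and the other 5 mice between 13.11 and 13.50. The mTORC1 inhibitor *Sesn2* and the translation repressor *Eif4ebp1* gave 0.03 and -0.01, and the interval of *Sesn2*, -0.21 to 0.26, was narrow.

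**Figure D2:**
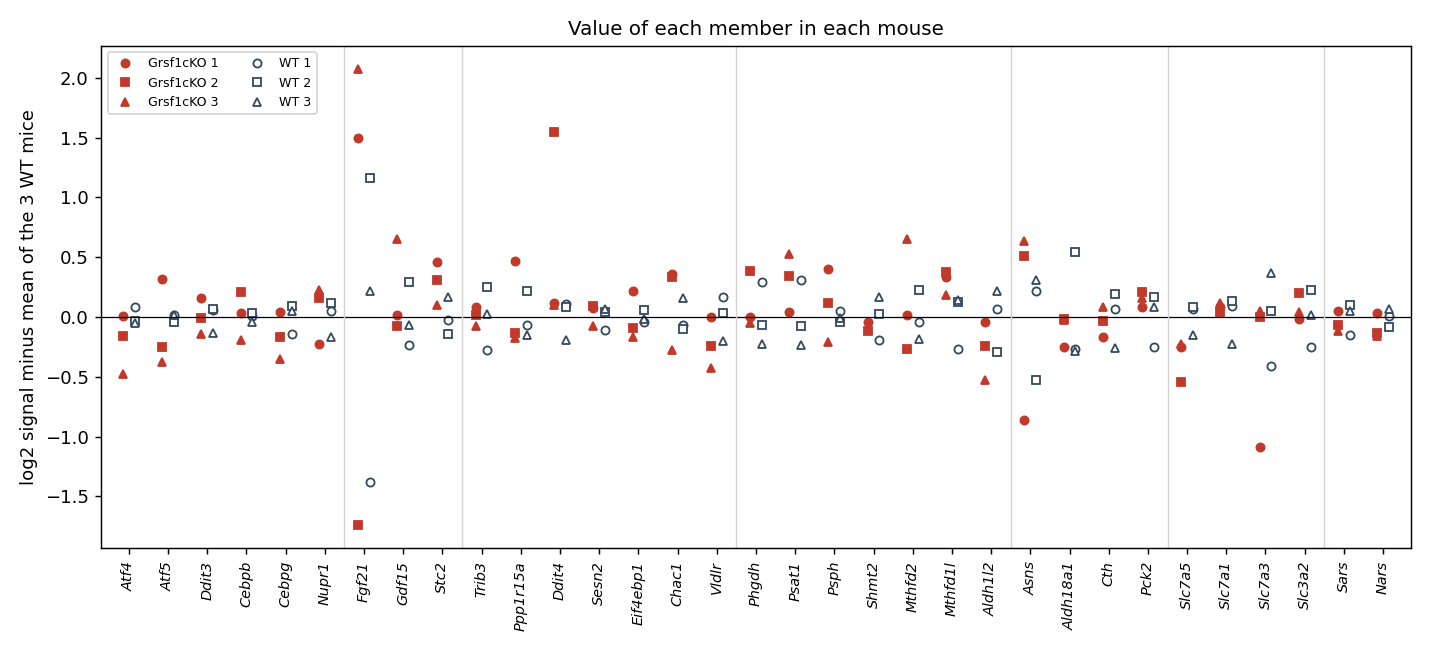
Log2 signal of each of the 33 members tested in each of the 6 mice, minus the mean of the 3 WT mice; red symbols are Grsf1cKO and open symbols WT mice, and vertical lines part the functional groups. The single high square of *Ddit4* is Grsf1cKO 2, and the low values of *Asns* are Grsf1cKO 1 and WT 2.

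The serine and one-carbon enzymes build serine from a glycolytic intermediate and pass its carbon to folate. Of the 7, 5 had differences above 0 and the median was 0.12. The 3 steps of serine synthesis, *Phgdh*, *Psat1* and *Psph*, gave 0.12, 0.31 and 0.10. *Psph* had 12.48, 12.20, 11.87 (Grsf1cKO), on both sides of the WT values of 12.13, 12.04, 12.07. The Grsf1cKO mice were more spread for this gene, with an SD of 0.31 against 0.05 in WT mice, and the difference was 0.11 with slide as a term and 0.08 on slide 2. *Psat1* had 9.05, 9.35, 9.53 (Grsf1cKO) and 9.32, 8.93, 8.77 (WT), so that WT 1 lay among the Grsf1cKO mice. The dimmer *Psat1* probe gave 0.47 with an interval of -0.23 to 1.17.

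In the mitochondrial folate branch, *Mthfd1l*, which releases formate, had a log2 signal of 5.99, 6.03, 5.84 (Grsf1cKO) and 5.39, 5.78, 5.80 (WT). The genotypes did not overlap, but Grsf1cKO 3 and WT 3 lay closer together than the arrays of a single mouse, 5.52 then 6.46 in Grsf1cKO 1 and 5.10 then 5.67 in WT 1. The difference was 0.30 (interval -0.05 to 0.64, limma adjusted *p* = 0.997), and the genotypes overlapped when only first arrays were used. It was 0.23 on first arrays, 0.21 on slide 2 alone, and 0.12 with slide as a term. No array had the second probe of *Mthfd1l* well above background. *Mthfd2* and *Shmt2*, which act before it, gave 0.14 and -0.09. The dimmer *Shmt2* probe gave 0.39 with an interval of -0.27 to 1.04, which overlaps that of the brighter probe, -0.37 to 0.20. On first arrays the dimmer probe gave 0.27, and with normexp 0.08. *Aldh1l2*, which returns folate to its unloaded form in mitochondria, gave -0.27 and -0.35 on its probes, and neither passed.

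*Asns*, which makes asparagine and is an established ATF4 target, varied widely between mice of the same genotype. Its log2 signal was 9.62, 10.99, 11.12 (Grsf1cKO) against 10.70, 9.96, 10.79 (WT). One mouse of each genotype, Grsf1cKO 1 and WT 2, was low and the other 4 were close together. The arrays of Grsf1cKO 1 gave 9.65 and 9.59, and the dimmer probe of *Asns* placed the same mice lowest, at 6.55 for Grsf1cKO 1 and 6.88 for WT 2. The mean difference of 0.10 had an interval of -1.01 to 1.20, and on slide 2 alone and with slide as a term it was -0.18 and -0.14. *Aldh18a1* of proline synthesis, the cystathionine lyase *Cth* and the mitochondrial PEP carboxykinase *Pck2* gave -0.10, -0.04 and 0.14, and the dimmer *Pck2* probe gave -0.22, or 0.07 on first arrays.

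Of the amino acid transporters, *Slc7a11*, the cystine exchanger, stayed near background on all 8 arrays and was not tested. *Slc7a5* encodes the light chain of the leucine transporter LAT1 and was the member with the lowest *p*. Its log2 signal was 7.09, 6.80, 7.12 (Grsf1cKO) against 7.41, 7.43, 7.19 (WT). All 3 Grsf1cKO values lay below the WT values, by 0.34 on average (difference -0.34, standard error 0.127). The limma *p* was 0.0367 before and 0.997 after adjustment, and the exact permutation *p* was 0.1, the smallest that 3 mice against 3 can give in a 2-sided test. On first arrays Grsf1cKO 1 gave 7.32, above WT 3, and the difference was -0.36. The arrays of WT 1 gave 7.70 on slide 1 and 7.11 on slide 2, so that on slide 2 alone the genotypes overlapped and the difference was -0.15. With slide as a term it was -0.10, and scaled to the 75th percentile it was -0.22, where neither *Slc7a5* nor *Mthfd1l* parted the genotypes.

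**Figure D3:**
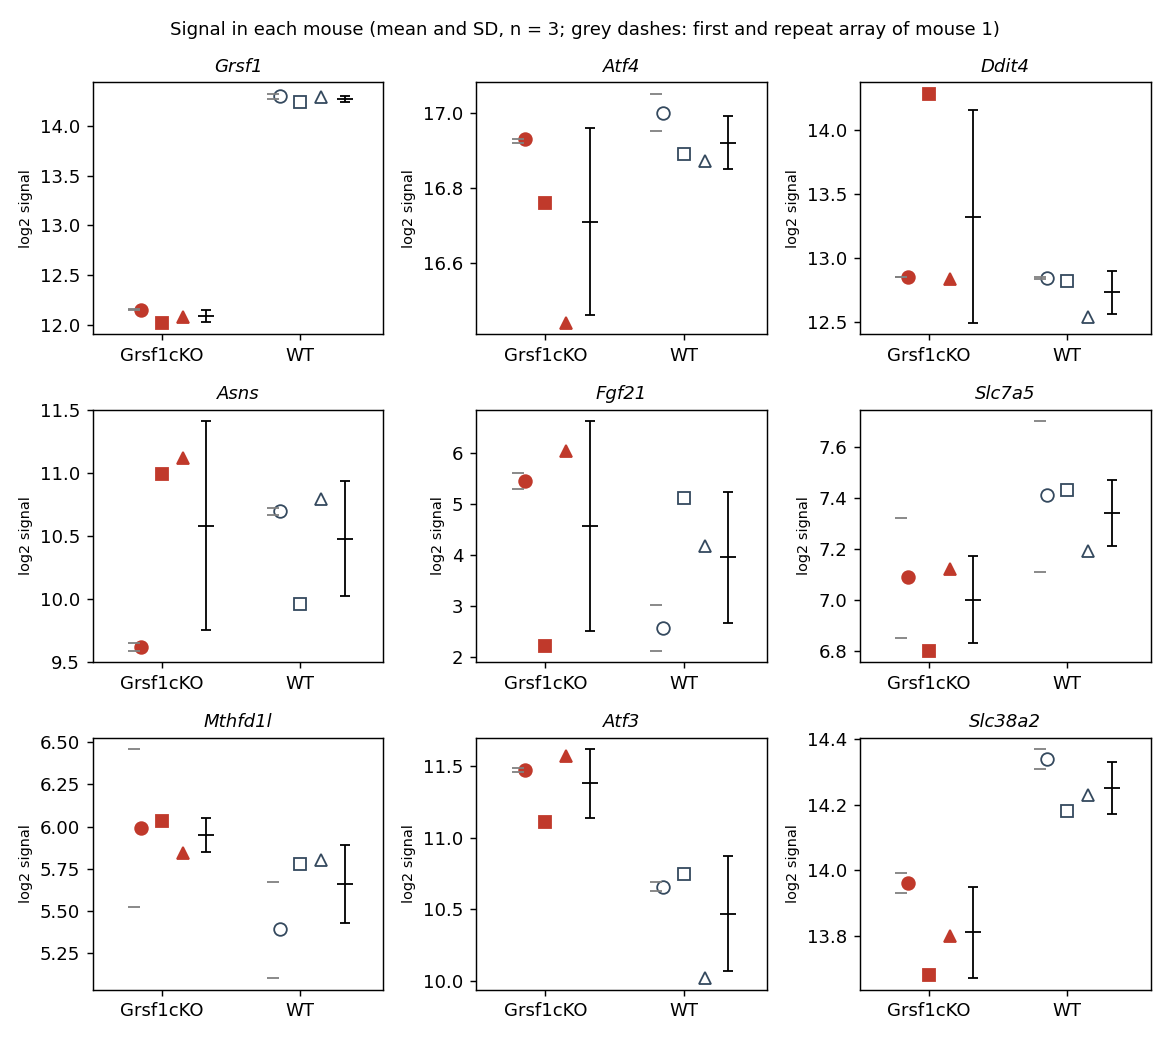
Log2 signal of *Grsf1*, 6 members and the ATF4-linked genes *Atf3* and *Slc38a2* in each mouse (circles mouse 1, squares mouse 2, triangles mouse 3), with the mean and SD of each genotype in black (n = 3) and the first and repeat array of mouse 1 as grey dashes. *Grsf1*, *Slc38a2*, *Atf3*, *Slc7a5* and *Mthfd1l* do not overlap between the genotypes, and for the last 2 the dashes of mouse 1 lie further apart than the means of the genotypes.

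*Slc3a2*, the heavy chain that pairs with several of these transporters, had 13.50, 13.72, 13.56 (Grsf1cKO) and 13.27, 13.75, 13.54 (WT). The mice were interleaved, and its probes gave 0.07 and -0.07, the brighter one 0.10 with slide as a term and 0.17 on slide 2. The cationic amino acid transporter *Slc7a1* gave 0.08. *Slc7a3*, another of these, was well above background on 6 of 8 arrays and gave -0.35, or -0.75 with slide as a term and -0.56 on slide 2, but 0.25 on first arrays. Its first and repeat arrays gave 5.11 then 2.43 in Grsf1cKO 1 and 3.98 then 4.91 in WT 1.

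Both tRNA synthetases of the list, which charge tRNAs with serine and asparagine, varied little between mice. *Sars* had 14.49, 14.37, 14.32 (Grsf1cKO) and 14.29, 14.54, 14.49 (WT). The mice were mixed, and the difference was -0.04 with an interval of -0.30 to 0.21, or 0.02 with slide as a term and 0.03 on slide 2. *Nars* gave -0.09, with an interval of -0.32 to 0.15.

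The highest and lowest values were spread unevenly over the mice. Grsf1cKO 1, 2 and 3 had the highest value of 7, 6 and 6 members, and WT 1, 2 and 3 of 2, 8 and 4. Grsf1cKO 3 had the lowest value of 12 members, more than any other mouse, and WT 1 of 8, while WT 2 had the lowest of 1. The median deviation of the 33 members from the WT mean was 0.04, -0.01, -0.07 (Grsf1cKO) and -0.02, 0.07, -0.01 (WT). The median SD between mice of a genotype was 0.15 over all named genes and 0.20 over the members, where it ran from 0.09 for *Sesn2* to 1.72 for *Fgf21*.

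Other genes of the pathway were examined in 5 lists of 114 genes, of which 110 were tested. With limma, 0 passed the criteria, and 1 higher and 2 lower had an unadjusted *p* under 0.05, where 197 higher and 387 lower of 17030 named genes did. The *z*-test gave 11 at that level, against 10.8% of all probes, and 1 past all criteria, *Atf3*, against 0.977%. The median difference was -0.05, with 31 genes above 0 and 79 below, where 7381 of the named genes were above 0 and 9649 below with a median of -0.02. With scaling to the 75th percentile the median over all probes was 0.02, so that the sign of that median depends on the scaling. For most genes of the 5 lists the sign was the same under both scalings. Among 18 genes of the eIF2 kinases, eIF2, eIF2B and the relay from mitochondria, none was over 1.5-fold or under an unadjusted *p* of 0.05, the median was -0.02 and the range -0.17 to 0.11. The 18 other cytosolic tRNA synthetases had a median of -0.08 and a range of -0.18 to 0.12, and for all 18 the 95% interval lay within 1.5-fold. The 25 genes tested of the wider folate and methionine cycle had a median of -0.02.

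The endoplasmic reticulum chaperones and other unfolded protein genes had a median of -0.06, with 19 of 22 below 0, to be read beside the same counts over all named genes. Under an unadjusted *p* of 0.05 there was 1, the chaperone *Hyou1*. It had 6.63, 6.40, 6.42 (Grsf1cKO) and 6.78, 6.93, 6.85 (WT). The genotypes did not overlap on this probe, with a difference of -0.37 (limma adjusted *p* = 0.997), or -0.30 with slide as a term and -0.31 on slide 2, but the other probes of *Hyou1* gave -0.07 and 0.23. On first arrays Grsf1cKO 1 gave 6.91, above WT 1 and WT 3, so that the genotypes overlapped, and the probes gave -0.30, 0.11 and -0.09.

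The 27 tested of the other ATF4 targets and partners had a median of -0.04 and held both remaining genes under an unadjusted *p* of 0.05. *Slc38a2* encodes SNAT2, a glutamine and alanine transporter that cells induce when amino acids are short. Its log2 signal was 13.96, 13.68, 13.80 (Grsf1cKO) against 14.34, 14.18, 14.23 (WT). Each Grsf1cKO mouse lay below each WT mouse, and the difference was -0.44 (standard error 0.107, limma adjusted *p* = 0.997). It was -0.49 on slide 2 alone and -0.46 with slide as a term. *Atf3*, a stress-induced factor downstream of ATF4, had 11.47, 11.11, 11.57 (Grsf1cKO) and 10.66, 10.75, 10.02 (WT). All 3 Grsf1cKO mice were higher, by 0.91 (standard error 0.232, limma adjusted *p* = 0.997), and with slide as a term and on slide 2 by 1.03 and 1.06. The *z*-test, which takes the variance of each probe from 3 mice as known, gave adjusted *p* values of 0.0347 for *Atf3*, 0.000521 for *Slc38a2* and 0.00124 for *Hyou1*, the last 2 lower in Grsf1cKO mice and under the 1.5-fold limit.

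**Figure D4:**
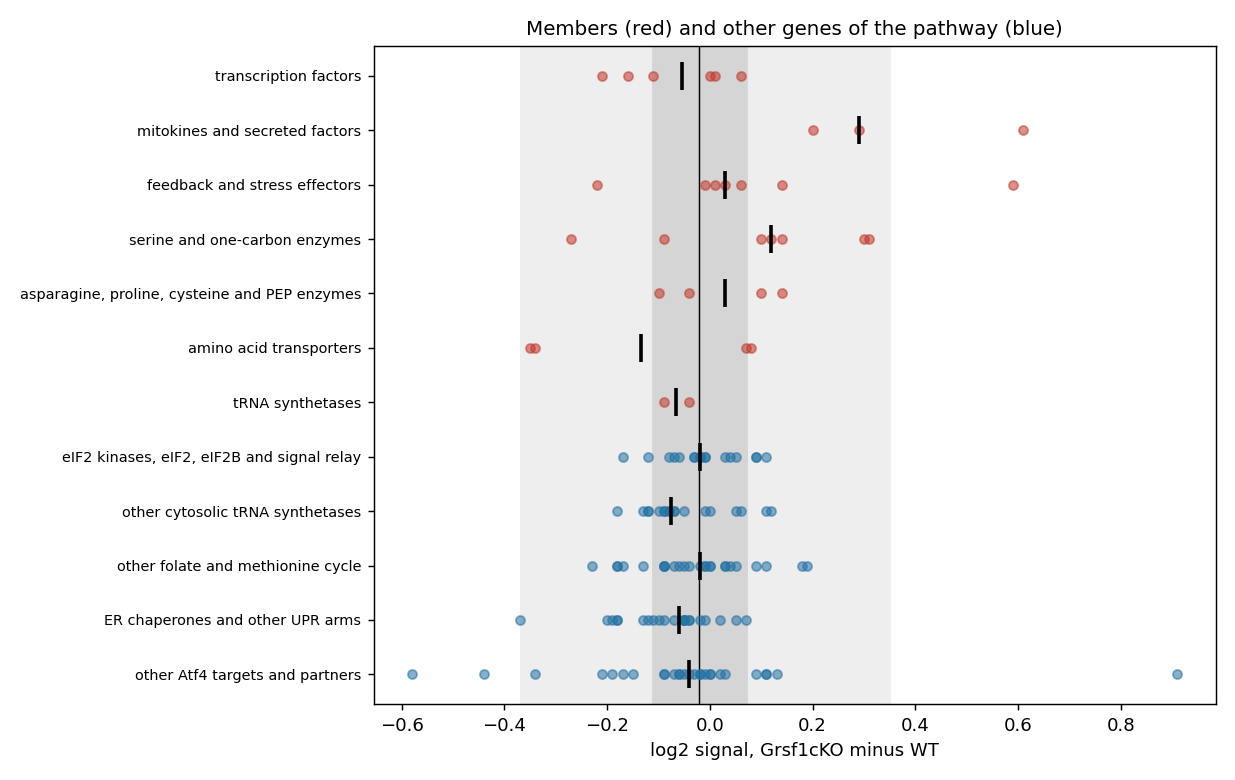
Difference in log2 signal, Grsf1cKO minus WT, of the tested genes in the 7 groups of members (red) and the 5 lists of other pathway genes (blue), each point a gene and each black bar a median. Dark and light grey bands hold the middle 50% and 90% of 17030 named genes and the thin line is their median. *Atf3* is the point at 0.91 and *Slc38a2* the one at -0.44.

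Other cell types of the muscle varied between mice. The adipocyte list of 7 genes, all well above background and led by *Fabp4*, gave 17.30, 17.55, 17.09 (Grsf1cKO) and 17.92, 17.94, 16.86 (WT), so that WT mice spanned the whole range. The part of these cells in the values of members was not tested.

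The sums of the fibroblast, endothelium and Schwann cell lists ran from 18.04 to 18.28, from 14.70 to 14.88 and from 14.15 to 14.42. The fibroblast sum is set mostly by *Dcn*, and the collagens varied more, *Col3a1* from 14.39 to 15.45 and *Col1a1* from 13.88 to 14.96, both highest in Grsf1cKO 3. All 5 fibroblast genes had differences above 0, with a median of 0.22. Of the satellite cell list, *Pax7* and *Myod1* were well above background and *Myf5* was not on any array, and their sums ran from 11.12 to 11.74. A further marker list, of a cell type not named here, had its highest sum in Grsf1cKO 3, at 16.00 against 15.57 to 15.85 in the other mice. Of its 7 genes tested, 1 was over 1.5-fold higher in Grsf1cKO mice. Its part in the values of members was not tested. No gene that stands for these lists passed the criteria.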

How the data were processed

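The authors deposited the processed intensity of each spot as read by Agilent Feature Extraction, which was used here, and a table of scores, each the *z*-score of the spot's log2 signal within its array, recomputed here to within 0.005 (array medians -0.24 to -0.16). The array grid names mm9. The signals of all spots other than controls were quantile normalized over 8 arrays. Outlier spots flagged by the software were then set to missing. The spots of a probe were averaged, which gave 56605 probes, and then the arrays of a mouse. A probe was tested if it stood well above background on all arrays of a mouse in 3 or more of the 6 mice, with limma (3.58.1; R 4.3.3), no covariates and Benjamini-Hochberg adjustment over all probes. A *z*-test on the same values, after the test named in the methods, used each probe's own variances and the normal distribution, with the same criteria. It left out the methods' variance filter and their limits on *z*-ratio and mean expression. The scripts were tested on simulated data. Symbols of 32994 probes came from RefSeq (GRCm38.p6), used for names and promoters only. The members and lists were chosen with earlier results of these data known. Values in each mouse are given for *Atf4*, *Atf3*, *Grsf1*, members under an unadjusted *p* of 0.05, over 1.5-fold or not overlapping, the brightest member of each group, and other pathway genes under 0.05. *Gdf15*, *Psat1* and *Slc7a3* were added after their values were seen.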

Additional observations from a re-analysis of the deposited data

How the results depend on the processing

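No member passed the study's criteria in the main comparison or under any of 19 alternatives. The member median lay between -0.01 and 0.07 over its alternatives, and moved by less than the spread of the mice, 0.05. *Grsf1* lay between -2.22 and -2.14. The count of members under an unadjusted *p* of 0.05 was 0 with scaling to the 75th percentile, normexp, first arrays only, the repeat array in place of the first, slide as a term, slide 2 only or an intensity trend, and 3 with the *z*-test, which called 380 probes in all, 99 higher and 281 lower, and put 10.8% of probes under 0.05. Leaving out a mouse gave 0 to 3, with 0 without Grsf1cKO 2 or WT 2. There were 2 without Grsf1cKO 1 (*Atf5* and *Slc7a5*) and 3 without Grsf1cKO 3 (*Stc2*, *Chac1* and *Slc7a5*). The share of all probes was 4.48% and 5.48% in these 2 cases. The count of members not overlapping was 0 with the 75th percentile (8.11% of all probes), 1 with first arrays only (9.18%) and 3 to 11 with a mouse left out (11 without Grsf1cKO 1, 8 without Grsf1cKO 3 or WT 1, 4 without WT 2 or WT 3), where fewer mice overlap less often by construction and 17.3% to 20.7% of all probes did not overlap. The causes of the others were not tested. In the *z*-test *Atf3* (0.91), *Slc38a2* (-0.44) and *Hyou1* (-0.37) had adjusted *p* values of 0.0347, 0.000521 and 0.00124, the last 2 under 1.5-fold. *Asns* was -0.14 with slide as a term, -0.18 on slide 2 and -0.17 to 0.58 with a mouse left out. *Sars* was 0.01 with the deposited scores, 0.02 with slide as a term, 0.03 on slide 2 and -0.12 to 0.01 with a mouse left out. *Psph* was -0.04 to 0.26 and *Slc3a2* -0.05 to 0.19 with a mouse left out. *Fgf21* was -0.08 to 1.79 without WT 1, WT 3 or Grsf1cKO 2, and was not tested without the other mice. With the replicate block, 1 probe was called in place of 3, and 0 members were under an unadjusted *p* of 0.05. *Grsf1* was no longer called, at a limma adjusted *p* of 0.248 against the limit of 0.2. Its mean difference of -2.19 cannot change in this balanced block. The block changed no call of a member. Mice of the same number correlated in their deviations by 0.2318, 0.0971 and 0.1026, which does not pass the limit of 0.1 for every pair, so the mice were taken to share only a number, although every mouse correlated best with the mouse of its own number, as a hint from the data.

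A signal near background is set largely by the background estimate, so that values of *Fgf21* and *Slc7a3*, not well above background on every array, say little of fold changes. Probe signals count mRNA and not protein, and translation of *Atf4*, phosphorylation of eIF2 and secretion of FGF21 and GDF15 were not analysed here. Members with wide intervals, *Fgf21*, *Ddit4*, *Asns* and *Slc7a3*, have room for a difference of over 2-fold, for *Slc7a3* on the lower side only. Slide 1 held WT arrays and no Grsf1cKO array, so that a slide effect could enter a difference between the genotypes. With slide as a term *Slc7a5* went from -0.34 to -0.10, while *Grsf1* went from -2.19 to -2.21 and *Atf3* from 0.91 to 1.03.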
